A study of Homo sapiens with 12 samples.

Results

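Disome footprints, long RNA fragments shielded by ribosomes that sit directly one behind the other, were compared with the level of the mRNA they came from after exposure of human cells to 10 µM girolline for 2 h. The cells were wild-type HEK293T Flp-In, a human embryonic kidney line that carries an engineered site for inserting transgenes. Girolline is a natural product of a marine sponge, and DMSO is its solvent and the control. Of the 12 libraries of the series, 6 entered the comparison: Disome DMSO 1 and 2, 1 disome library at 10 µM girolline, RNA-seq DMSO 1 and 2, and 1 RNA-seq library at 10 µM girolline. Libraries of the same 2 kinds at 1 µM are set beside it. Each dose has 1 library per kind, so the spread between samples was estimated from the DMSO pairs, and the library at 10 µM was assumed to vary as they do. Every library pools many cells, so fewer cells with a footprint and fewer footprints per cell cannot be told apart.

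Transcripts were kept when their coding region had at least 100 codons and when their mean count reached 10 CPM (counts per 1000000 counts of a library) over the 3 libraries of each kind. Of 182398 transcripts in the tables, 93916 had a coding length, 75821 of these had at least 100 codons, 19230 of these reached the RNA-seq level and 12631 of these also reached the disome level. Merging those whose counts were identical in all 6 libraries left 11237. They have UCSC transcript IDs, which no file used here pairs with gene names. Transcripts are therefore described by coding length and level, with 2 named by ID in each direction. Markers of the cell line were not analysed here for the same reason. Isoforms of a gene share reads and are not independent. The 11237 transcripts fell into 4004 blocks of 10 consecutive coding rows, and counts with 1 transcript per block are given where they bear on a result.

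A disome forms when a ribosome runs up against one ahead of it that has paused, so disome footprints mark places where ribosomes queue. Their number on a transcript also depends on how much mRNA there is and on how many ribosomes each mRNA carries. Dividing by mRNA level removes the first of these but not the second. The series title places the action of girolline at eIF5A, a translation factor that promotes peptide bond formation at slow sequence stretches and helps release of the finished protein at stop codons. The comparison asks on which transcripts disome footprints changed by more or by less than the mRNA did.

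Total counts ran from 28424272 to 42194871 in the 3 RNA-seq libraries and from 3091715 to 5769026 in the 3 disome libraries. The kept transcripts held between 64.1% and 64.4% of RNA-seq counts and between 70.0% and 71.4% of disome counts. Over these transcripts, the chi-square per degree of freedom between DMSO 1 and DMSO 2 was 17.4 in RNA-seq and 3.09 in disome libraries, so neither pair agreed within counting noise. Nothing in the labels ties the DMSO libraries to separate cultures. The p-values therefore cover only the spread seen in these samples, and that spread may be technical.

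At 10 µM, disome footprints rose relative to mRNA on 2631 of 11237 transcripts (23.4%) and fell on 2772 (24.7%), together 48.1%, by edgeR's quasi-likelihood test of the interaction of library kind and dose at a Benjamini-Hochberg FDR of 0.05. Transcripts called higher had a median log2 change of 1.28 and reached 4.52, and those called lower had a median of -1.08 and reached -3.70. In the fitted values, 96 transcripts were over 8-fold higher and 4 over 8-fold lower. Of the rises, 552 were on transcripts with a DMSO disome mean under 10 CPM, which were kept through their level at 10 µM and so had to be high there. With transcripts kept on the DMSO libraries alone, the medians of those called were 1.21 and -1.07, and 37 were over 8-fold higher and 3 over 8-fold lower. The scaling removes any change that every transcript shares, so each value is relative to the rest of its library. The median log2 change over all 11237 was -0.09.

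The DMSO libraries differed from each other far less than either differed from 10 µM. The disome to mRNA ratio differed over 2-fold on 30.8% of transcripts between 10 µM and DMSO 1 and on 32.6% between 10 µM and DMSO 2. Between DMSO 2 and DMSO 1 it did so on 0.400%. Across transcripts, the log2 ratio change had an SD of 1.01 and 1.05 against the single DMSO libraries, and of 0.31 within the DMSO pair.

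The largest rise by the naming rule was on transcript uc060yld.1, of 101 codons. It had 113 and 150 disome counts in Disome DMSO 1 and 2 and 2389 at 10 µM, while its RNA-seq counts were 6006 and 5711 with DMSO and 3205 at 10 µM. For every 100 CPM of mRNA it had 20.6 and 21.6 disome CPM with DMSO and 416 at 10 µM. The DMSO libraries lay close together, and the library at 10 µM stood far above both. Its log2 ratio change was 4.33 (SE 0.29), with an adjusted p of 2e-08 in the edgeR test. Most of that change was on the disome side, with a log2 change of 3.77 (SE 0.20) for disomes and -0.56 (SE 0.19) for mRNA. The mRNA value was not past the threshold (adjusted p = 0.140, edgeR).

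Transcript uc001poy.4, of 238 codons, followed. Its disome counts were 6 and 10 with DMSO and 155 at 10 µM, and its RNA-seq counts were 450 and 697 with DMSO and 292 at 10 µM. Disome CPM per 100 CPM of mRNA stood at 15.8 and 12.4 with DMSO and at 297 with 10 µM, again with no overlap. The log2 ratio change was 4.51 (SE 0.37), with an adjusted p of 1.46e-07 in the edgeR test. It rests on few DMSO footprints, and its scaled DMSO disome levels of 2.17 and 2.00 CPM lie below the 10 CPM filter, which the transcript passed through its level at 10 µM.

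The largest fall was on transcript uc058ivk.1, of 194 codons. Its disome counts were 52 and 68 with DMSO and 7 at 10 µM, against RNA-seq counts of 372 and 571 with DMSO and 424 at 10 µM. Per 100 CPM of mRNA it went from 154 and 98.5 disome CPM with DMSO to 9.86. The DMSO libraries themselves were 0.64 apart on the log2 scale here, and 10 µM lay below both. The log2 ratio change was -3.70 (SE 0.47), with an adjusted p of 1.04e-05 in the edgeR test.

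Transcript uc060gyi.1 has 128 codons, and its disome counts fell from 66 and 82 with DMSO to 10 at 10 µM. Its RNA-seq counts were 791 and 963 with DMSO and 635 at 10 µM, close to level once scaled to library size. Disome CPM per 100 CPM of mRNA was 91.8 and 70.3 with DMSO and 9.22 at 10 µM. The log2 ratio change was -3.16 (SE 0.45), with an adjusted p of 3.07e-05 in the edgeR test. In each of these 4 transcripts the values at 10 µM lay outside the DMSO pair, as the naming rule requires.

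**Figure D1:**
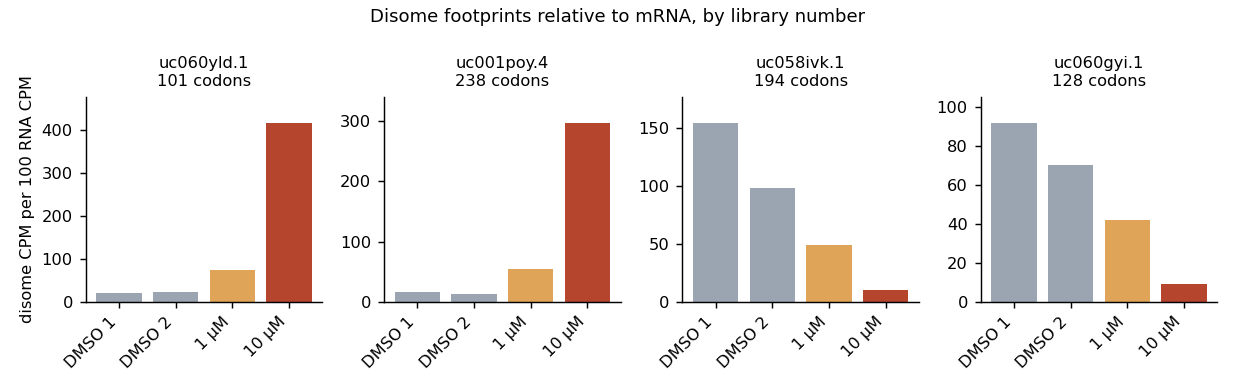
Disome CPM per 100 CPM of mRNA (vertical axis, starting at 0, own scale in each panel) for the 4 transcripts named by ID; each bar is 1 disome library divided by the RNA-seq library of the same treatment and number. The 10 µM bars reach 416 and 297 in the panels for uc060yld.1 and uc001poy.4 and drop to 9.86 and 9.22 in those for uc058ivk.1 and uc060gyi.1.

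The naming rule asks for a call and for disome and ratio changes over 2-fold, in the same direction, against each DMSO library. It took in 1236 transcripts that rose, with a median of 219 codons, and 790 that fell, with a median of 734.5. The rises include transcripts kept only through their level at 10 µM, such as uc001poy.4, and the falls do not. The named falls passed the filter through their DMSO levels, with scaled disome levels of 1.40 (uc058ivk.1) and 1.96 CPM (uc060gyi.1) at 10 µM. The 2 counts and the sizes at their ends are therefore not on an equal footing. Among the first 12 rises, single DMSO disome counts went down to 5. The first 12 rises spanned 101 to 276 codons and log2 ratio changes of 3.90 to 4.52, and they lay in 11 blocks. The first 12 falls spanned 111 to 1649 codons and changes of -3.70 to -2.39, in 10 blocks. The extreme falls thus included short coding regions, although falls in general were on longer ones.

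Disome changes were larger than mRNA changes. Among the 2631 transcripts whose ratio rose, the median log2 change was 1.09 for disomes and -0.22 for mRNA, and 2468 of them also rose in disome footprints taken alone. Among the 2772 whose ratio fell, the medians were -0.92 and 0.17, and 2511 also fell in disome footprints alone. These overlaps rest on the same disome counts and are no separate support. Disome footprints alone rose on 2842 (25.3%) and fell on 3143 (28.0%) of the 11237, together 53.3%.

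Setting disomes against mRNA changed the call for part of the transcripts. Of the 2842 with raised disome footprints, 369 were not called in the ratio and 5 were called lower. Of the 3143 with lowered disome footprints, 632 were not called in the ratio and 0 were called higher. Without a call in disome footprints alone, 163 transcripts were called higher and 256 lower in the ratio.

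Few mRNAs passed the test by themselves. Of 11237, 128 rose (1.14%) and 107 fell (0.952%) in RNA-seq at 10 µM, together 2.09%, with median log2 changes of 0.80 and -0.75 among those called. These counts depend on the fit: without RNA-seq DMSO 1 they were 267 and 158, without DMSO 2 67 and 90, with RNA-seq fitted alone 240 and 332, and with 1 transcript per block 32 and 14 of 4004. In the fit of all 6 libraries, of the 107 mRNAs that fell, disome footprints rose on 76 and fell on 9, where 25.3% and 28.0% of all transcripts did so. Their median log2 change was -0.75 in mRNA and 1.19 in disomes, their median ratio change was 2.00, and they had a median of 146 codons. Of these 107, 91 had 100 to 199 codons. In that class as a whole, disome footprints rose on 998 of 2017 transcripts and fell on 316, so coding length and mRNA change are not separated here. Of the 128 mRNAs that rose, disome footprints rose on 31 and fell on 44, with a median of 466 codons. Of these 128, 48 had 100 to 199 codons and 38 had 500 to 999. Across all 11237 transcripts the log2 changes of disomes and mRNA had a Pearson's r of -0.35 and a Spearman's rho of -0.38, as a description across transcripts, which share libraries and coding lengths.

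**Figure D2:**
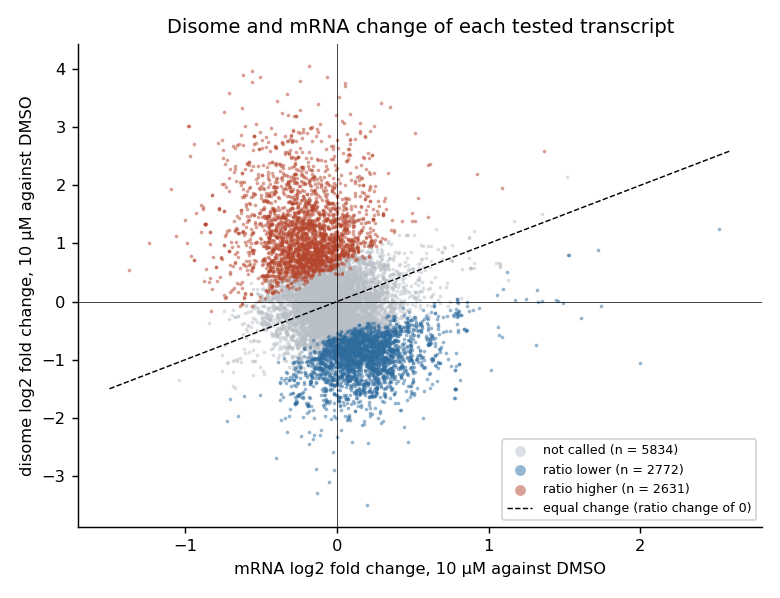
Log2 fold change at 10 µM against DMSO in RNA-seq (horizontal axis) and in disome libraries (vertical axis) for the 11237 transcripts, 1 point each, coloured by the call of the ratio. The points spread further along the disome axis (SD 0.90) than along the mRNA axis (SD 0.27), and those called higher (2631) or lower (2772) lie above and below the dashed line of equal change.

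The change differed with coding length. Transcripts of 100 to 199 codons gained disome footprints relative to mRNA, with 988 of 2017 higher and 234 lower and a median log2 change of 0.62. The share called higher was 49.0% there, against 23.4% over all lengths. With transcripts kept on the DMSO libraries alone, 839 of 1824 (46.0%) in this class were called higher, and 2317 of 10870 over all lengths. At 200 to 299 codons 676 of 1582 were higher and 195 lower, with a median of 0.47, and at 300 to 499 codons 666 of 2345 were higher and 349 lower, with a median of 0.18.

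From 500 codons on, falls led. At 500 to 999 codons 963 of 3348 fell and 280 rose, with a median of -0.32. At 1000 to 1999 codons 740 of 1536 fell and 20 rose, with a median of -0.69. Of the 409 transcripts with 2000 codons or more, 291 (71.1%) fell and 1 rose, against 24.7% falls over all lengths. Their median was -1.02, or 2.03-fold lower. Kept on the DMSO libraries alone, 275 of 424 (64.9%) in this class fell, and 2455 of 10870 over all lengths. With the 11237 transcripts in 20 bins of nearly equal size, the median stood between 0.46 and 0.65 in the first 6 bins, up to 285 codons. It was -0.0007 in the bin of 470 to 522 codons and -0.96 in the last, of 1762 codons or more. Spearman's rho between codons and ratio change was -0.51 over 11237 transcripts and -0.57 over 4004 with 1 per block, as a description.

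The medians against single DMSO libraries were close to each other. In the class of 100 to 199 codons they were 0.58 against DMSO 1 and 0.66 against DMSO 2, and with 2000 codons or more -0.97 and -1.03. DMSO 2 against DMSO 1 had medians of -0.08 and 0.07 in these classes, so the DMSO pair also differed slightly with length. Its sign depends only on the order of the pair.

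**Figure D3:**
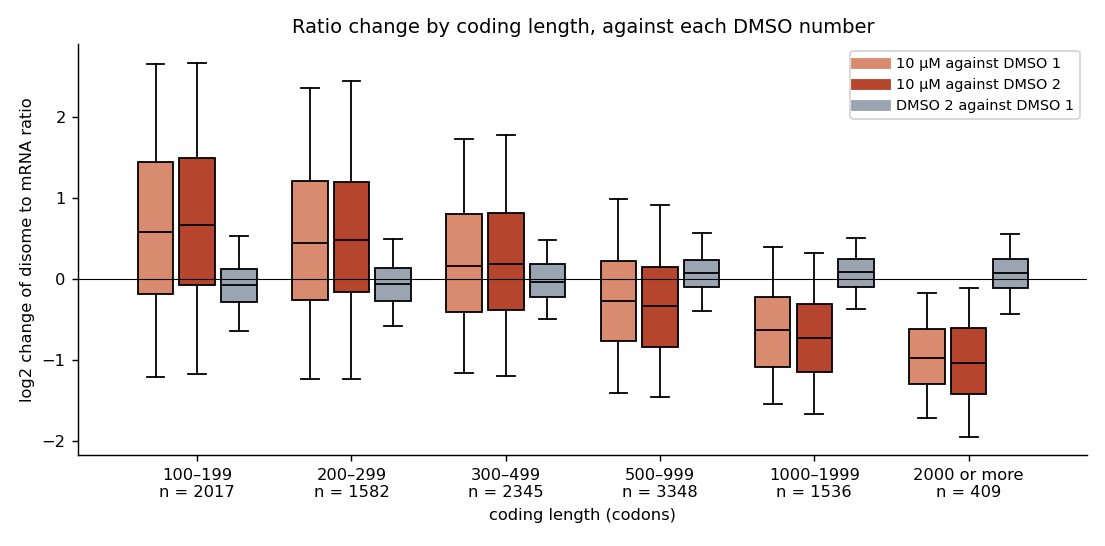
Log2 change of the disome to mRNA ratio (vertical axis) in 6 classes of coding length (horizontal axis) for 10 µM against DMSO 1, 10 µM against DMSO 2, and DMSO 2 against DMSO 1; boxes span the quartiles with the median as a line, and whiskers the 5th to 95th percentiles over transcripts. The 10 µM medians step down from 0.58 and 0.66 in the shortest class to -0.97 and -1.03 in the longest, while those of the DMSO pair stay between -0.08 and 0.08.

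Disomes and mRNA taken alone changed with length in opposite directions. The median log2 change of disomes went from 0.51 at 100 to 199 codons to -0.78 at 2000 codons or more. That of mRNA went from -0.17 to 0.20 over the same classes. The RNA-seq part is the smaller of the 2. The log2 ratio change is the disome change minus the mRNA change, so opposite directions make it larger.

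With DMSO, the ratio differed less with length than at 10 µM. The median log2 ratio of disome to RNA-seq CPM, each per codon counted, lay between -0.34 and 0.05 in all 6 classes in DMSO 1 and DMSO 2. At 10 µM it ran from 0.48 at 100 to 199 codons through 0.12 at 300 to 499 to -1.18 at 2000 codons or more. At 1 µM it ran from 0.09 through 0.02 to -0.79, between DMSO and 10 µM in each class. RNA-seq counts leave out 20 codons of each coding region that disome counts include. This difference in length is alike in all libraries of a kind, so it bears on the levels but cancels in the changes. A change at 10 µM in the share of disome counts from these 20 codons would not cancel and was not tested. The levels also include 659 transcripts with a DMSO disome mean under 10 CPM, which were kept through the library at 10 µM.

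**Figure D4:**
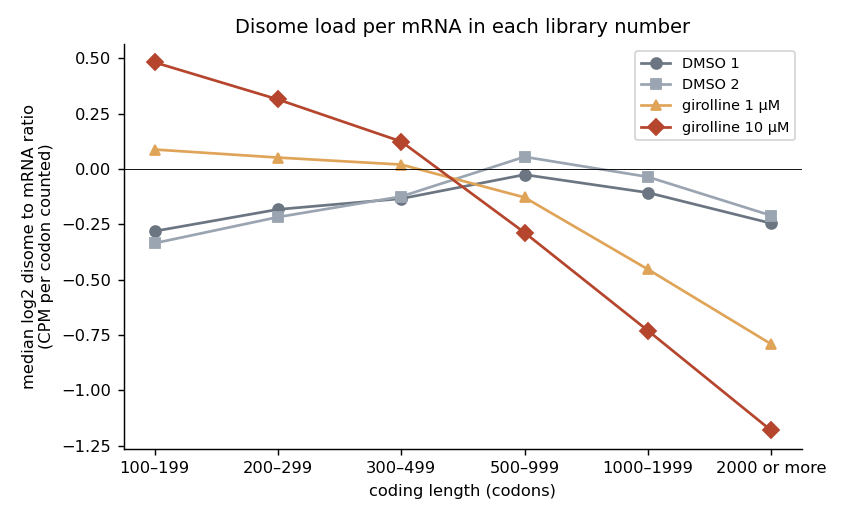
Median log2 ratio of disome to RNA-seq CPM per codon counted (vertical axis) by class of coding length (horizontal axis), with 1 line per treatment and library number. The DMSO lines stay within -0.34 and 0.05, and the 10 µM line falls from 0.48 to -1.18 with the 1 µM line between.

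Shares of counts, which need no scaling between libraries, moved the same way. Shares here are of the counts of the 4004 transcripts taken 1 per block, which were kept with the libraries at 10 µM included. With 1 transcript per block, those of 100 to 199 codons held 16.6% and 15.9% of disome counts with DMSO and 23.5% at 10 µM, while their share of RNA-seq counts was 17.1% and 17.3% with DMSO and 15.7% at 10 µM. Transcripts of 2000 codons or more held 4.61% and 5.18% of disome counts with DMSO and 2.49% at 10 µM, against 4.53% and 4.76% of RNA-seq counts with DMSO and 5.59% at 10 µM. In both classes the share at 10 µM lay outside the DMSO pair, upward in one kind of library and downward in the other.

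Transcripts of one length class differed widely among themselves. Within the class of 100 to 199 codons the middle 90% of transcripts spanned log2 changes of -1.20 to 2.67, and with 2000 codons or more -1.76 to -0.20. The 234 short transcripts that fell lay in 144 blocks and had a median log2 change of -1.11, made up of medians of -1.04 in disomes and 0.07 in mRNA. Of 1945 transcripts with 1000 codons or more, 21 rose, in 13 blocks, with changes of 0.59 to 1.33. The single transcript of 2000 codons or more that rose had 2079 codons and a log2 change of 0.71.

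In every quartile of mRNA level, the class of 300 to 499 codons had a higher median than that of 1000 to 1999 codons. In the quartile of transcripts with the most mRNA per codon, of at least 14.7 CPM per 100 codons, the median change was 0.61 at 100 to 199 codons and -0.72 in the 34 transcripts of 1000 to 1999 codons, while its lone transcript of 2000 codons or more had 0.71. In the next quartile these medians were 0.65 and -0.48, the latter over 95 transcripts. In the quartile with the least mRNA, no transcript had under 300 codons, and medians ran from -0.14 at 300 to 499 codons to -1.05 at 2000 codons or more. That quartile reached at most 3.17 CPM per 100 codons, so the limit of 10 CPM left hardly any room for shorter coding regions. Partly through this limit, level and length go together in the kept set, with a median of 200 codons in the highest quartile and 1014 in the lowest.

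Transcripts with few disomes per mRNA in the DMSO libraries gained the most. For this description the transcripts were kept on the DMSO libraries alone (10870), ranked by the ratio in one DMSO number and compared with the other, so that the rank and the change share no library. Ranked by DMSO 1, the lowest quintile had a median log2 change of 0.35 against DMSO 2 and the highest -0.35. Ranked by DMSO 2, these medians were 0.41 and -0.45 against DMSO 1. The other DMSO library, set against the one used for ranking, gave 0.06 and -0.07 in the first ranking and 0.07 and -0.04 in the second.

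The order by untreated ratio held within each class of length when the lowest and highest quintiles were compared. At 100 to 199 codons the lowest quintile by DMSO 1 had a median change of 1.10 and the highest 0.22. At 2000 codons or more these were -0.55 and -1.34. Ranked by DMSO 1, short regions with a low untreated ratio and long ones with a high ratio thus lay at the ends of the range. In the first group 54.4% of 436 transcripts were over 2-fold higher than DMSO 2. In the second 70.8% of 72 were over 2-fold lower, and in quintile 4 of the same lengths 74.6% of 63. Ranked by DMSO 2, quintile 4 at 2000 codons or more had a median of -1.14 and quintile 5 -1.12.

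**Figure D5:**
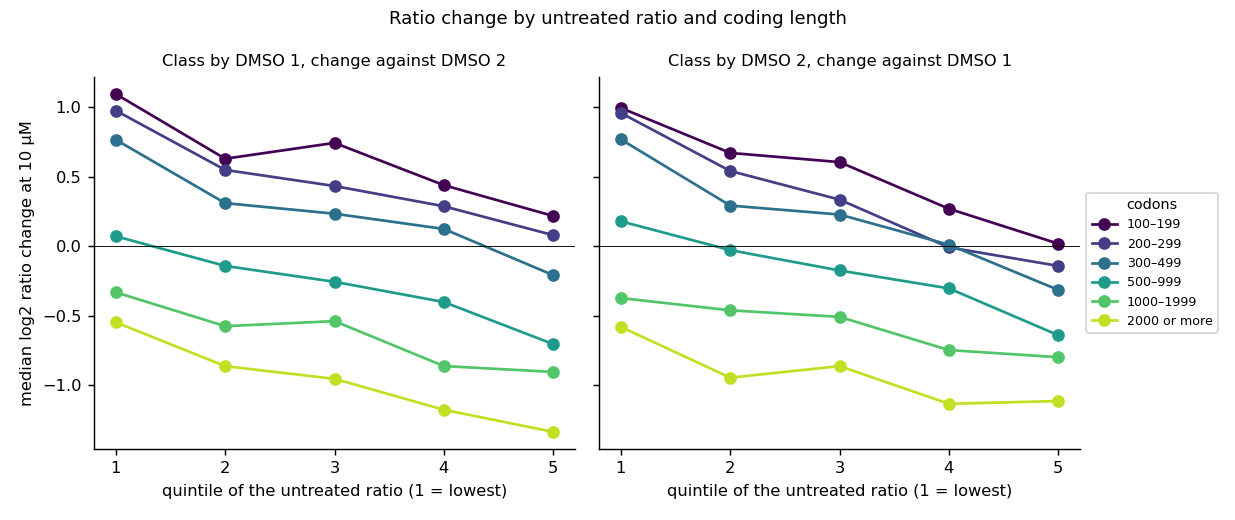
Median log2 change of the disome to mRNA ratio at 10 µM (vertical axis) by quintile of the untreated ratio (horizontal axis, 1 is lowest), 1 line per class of coding length; the left panel ranks by DMSO 1 and measures change against DMSO 2, and the right panel the other way round. Each line is lower at quintile 5 than at quintile 1, as from 1.10 to 0.22 at 100 to 199 codons in the left panel. Longer classes lie lower, except that at quintile 4 of the right panel the 300 to 499 class (0.01) lies above the 200 to 299 class (-0.009).

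At 1 µM the changes were smaller. In a fit of all 8 RNA-seq and disome libraries, 486 of 11237 transcripts (4.32%) rose relative to mRNA and 96 (0.854%) fell at this dose, together 5.18%. Median log2 changes by class ran from 0.30 at 100 to 199 codons through 0.11 at 300 to 499 to -0.50 at 2000 codons or more, beside 0.62, 0.18 and -1.02 at 10 µM. The comparisons of both doses share the DMSO libraries. Transcripts uc060yld.1 and uc001poy.4 had log2 ratio changes of 1.85 (SE 0.28) and 2.04 (SE 0.44) at 1 µM, with adjusted p of 0.00196 and 0.0129 in the edgeR test. Transcripts uc058ivk.1 and uc060gyi.1 had -1.31 (SE 0.38) and -0.92 (SE 0.34), which did not pass (adjusted p = 0.0510 and 0.127, edgeR).

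To set the doses side by side without a shared library, 1 µM was also taken against DMSO 1 and 10 µM against DMSO 2. Of 1880 transcripts over 2-fold higher at 10 µM, 1719 (91.4%) were above 0 at 1 µM, with a median log2 change of 0.60 beside 1.58 at 10 µM. Of 1782 over 2-fold lower at 10 µM, 1598 (89.7%) were below 0 at 1 µM, with medians of -0.39 and -1.32. With the DMSO numbers exchanged, the shares were 91.9% of 1870 and 91.0% of 1589. In both pairings the rises include transcripts kept only through their disome level at 10 µM, such as uc001poy.4. Over all 11237 transcripts, the median log2 change at 1 µM was -0.03 against DMSO 1 and -0.03 against DMSO 2.

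Errors were smaller at higher disome depth. In the quartile with the fewest disome counts, 127 to 219 over the 3 libraries, the median SE of the log2 ratio change was 0.32 and 39.8% of transcripts were called. In the quartile with the most, from 696 up, it was 0.23 and 59.8% were called, while the median size of the change was 0.65 and 0.72. The 5834 transcripts not called include log2 changes from -0.93 to 1.06, with a median SE of 0.29, so a missing call does not show that disomes and mRNA moved alike.

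Of the 11237 transcripts, 659 had a DMSO disome mean under 10 CPM and were kept through the library at 10 µM. Such transcripts had to be high at 10 µM, and 552 of them were called higher and 0 lower. Another 408 that reached 10 CPM of both kinds with DMSO were left out. Kept on the DMSO libraries alone, 2317 of 10870 rose and 2455 fell, and the medians were 0.57 at 100 to 199 codons and -0.94 at 2000 codons or more. Just inside and outside the length limit, the 174 transcripts from 100 up to 110 codons had a median change of 0.82 and the 116 from 90 up to 100 codons 1.20. For disome means of 10 to 12 and of 8 to 10 CPM the medians were -0.04 and -0.01.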

How the data were processed

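For each RNA-seq and RNase I disome library the authors deposited whole-number counts of reads per transcript, with 0 where a transcript has no coding length. STAR 2.7.0a, CASAVA 1.8 and build hg38 are listed, per the submitters' processing notes, with no role stated. The counting tool and the annotation release are not given in the sources used here. The deposited tables also hold a length, another kind of value, which was inferred to be in codons and lies 20 lower in RNA-seq than in disome tables.

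The test was run in edgeR 4.0.16 (R 4.3.3) with TMM scaling on library totals, a model of kind, dose and their interaction over 6 libraries and 4 groups (2 residual degrees of freedom), the quasi-likelihood test and Benjamini-Hochberg adjustment over all 11237 transcripts. The common dispersion corresponds to a coefficient of variation of 9.84%. Values for single libraries are log2 of CPM after adding 0.5 to counts. The code was tested on simulated data.

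Named transcripts were called, changed over 2-fold in ratio and in disomes against each DMSO library, and were ranked by the smaller ratio change, with the first 2 taken each way. Gene lists, markers and protein features had been planned, but the IDs could not be named. The transcripts, classes and rules were chosen with earlier results of these data known. Monosome libraries were not used here. Alternatives in scaling, filters, isoforms, tool (DESeq2 1.42.0) and libraries were run.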

Additional observations from a re-analysis of the deposited data

How the results depend on the processing

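No transcript called in the ratio at 10 µM was called in the opposite direction under any of the 20 alternatives. Other scalings moved the median log2 change over all transcripts from -0.09 to between -0.14 (upper quartile) and -0.003 (TMM within each kind), with 45.9% to 54.7% of calls higher against 48.7%. Counts of rises and falls changed by over 1.5 times where other transcripts were tested: 1143 and 1061 of 3669 at 30 CPM or more, 5808 and 4716 of 47342 with edgeR's own filter, 5767 and 4420 of 51262 with no filter, and 891 and 1002 of 4004 with 1 transcript per block. Disome rises and falls were 997 and 1088 with 1 per block. mRNA calls were the least stable: 228 rises and 251 falls with DESeq2 size factors, 32 and 14 with 1 per block, and 240 and 332 with RNA-seq fitted alone. Leaving out 1 RNA-seq DMSO library gave 67 to 267 mRNA rises (67 without DMSO 2, 267 without DMSO 1) and 90 to 158 falls. The cause was not tested.

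Leaving out 1 of the 4 DMSO libraries gave 2430 to 2782 rises and 2252 to 2927 falls in the ratio, and DESeq2 2229 and 1885. With 1 transcript per block, length medians were 0.78, 0.66, 0.23 and -0.27 from 100 to 999 codons, and 0.515% of the longest class rose. With DESeq2 size factors those from 200 to 999 codons were 0.51, 0.22 and -0.27. The longest class ran from -1.03 to -0.97 when 1 DMSO number was left out. With the DMSO number as a replicate block, 3068 rose and 3447 fell. DMSO 1 minus DMSO 2 correlated at 0.27 between kinds, but the labels do not say that numbers mark shared cultures. The 4 named transcripts kept their call in all 70 refits that held them. They were picked as extremes of these same counts, so this is no separate support. Transcript uc001poy.4 was not among those kept on the DMSO libraries alone. Filters on DMSO alone, sizes from kept rows (2908 rises, 2482 falls) and a median set to 0 (2871, 2357) were added after the data were seen.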
